A study of Homo sapiens with 8 samples.

Results

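The secreted matrix proteins TGFBI, POSTN, THBS1, THBS2, THBS3, TNC, SPARC, FN1, FBN1 and FBN2 were followed in MDA-MB-231 cells after TGFβ. Members were all probe sets that the platform annotation assigns to 1 of these 10 genes, which gave 32 of the 54613 probe sets tested, and no probe set naming several genes held a member. The annotation names 19775 genes in all. The arrays are Affymetrix expression arrays, on which a probe set is a group of short probes for a transcript and a gene can have several. Values are RMA signals, taken as log2, from a line of a metastatic human breast cancer.

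Both groups carried a retroviral hairpin RNA against GFP and had gone 24 h without serum. The treated group then received TGFβ for 3 h, at a labelled dose of 5 µg/ml whose unit is uncertain because TGFβ is usually given in ng/ml, and the untreated group did not. Each group had 4 arrays with the letters A to D, called biological replicates without a word on whether cultures were separate, so the p-values rest on the spread among these arrays alone. The study asks which genes TGFβ and mutant p53 control together. Its p53-depleted cells were not analysed here.

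Matricellular proteins are secreted into the matrix and act on cells through integrins and other receptors more than as structural elements. TGFBI and POSTN (periostin) are related adhesion proteins built from fasciclin domains. Thrombospondins bind cells, calcium and matrix, and THBS1 is known as an activator of latent TGFβ. Fibronectin (FN1) assembles into fibrils that cells hold through integrins, while fibrillins (FBN1 and FBN2) form the microfibrils on which latent TGFβ is stored. Several of these genes are known targets of TGFβ in fibroblasts and carcinoma cells.

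TGFBI rose after TGFβ, THBS1 rose with calls that depended on the probe set and the fit, and no member was called lower. In the fit without the letters 2 of the 32 probe sets passed an adjusted p of 0.05, both higher, against 0.256% of all probe sets in either direction and 0.152% higher. At an unadjusted p of 0.05, 10 were higher and 0 lower, against 3.69% and 3.75% of all probe sets. Deviations of same-letter arrays from their group means correlated by 0.41 (A), 0.59 (B), 0.26 (C) and 0.24 (D). Arrays C and D each matched the other letter best. With the letter as a block 7 probe sets passed, all higher, against 1.75% of all probe sets in either direction and 0.758% higher. In the block fit 16 were higher and 1 lower at an unadjusted p of 0.05, against 5.62% and 7.62% of all probe sets. The 7 belonged to TGFBI (1), THBS1 (5) and FN1 (1). The count without the block was 5 without treated array A, and 1 without treated array B, C or D or untreated array C or D. The treated arrays lay above all untreated ones in 6 members (2.79% of all probe sets), and the treated array was the higher of its letter in all 4 pairs in 17 members (11.0% of all probe sets). The members' median log2 fold change was 0.20, and that of all probe sets 0.01. Probe sets of 1 gene share its transcripts, so these counts are not of independent features.

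**Figure D1:**
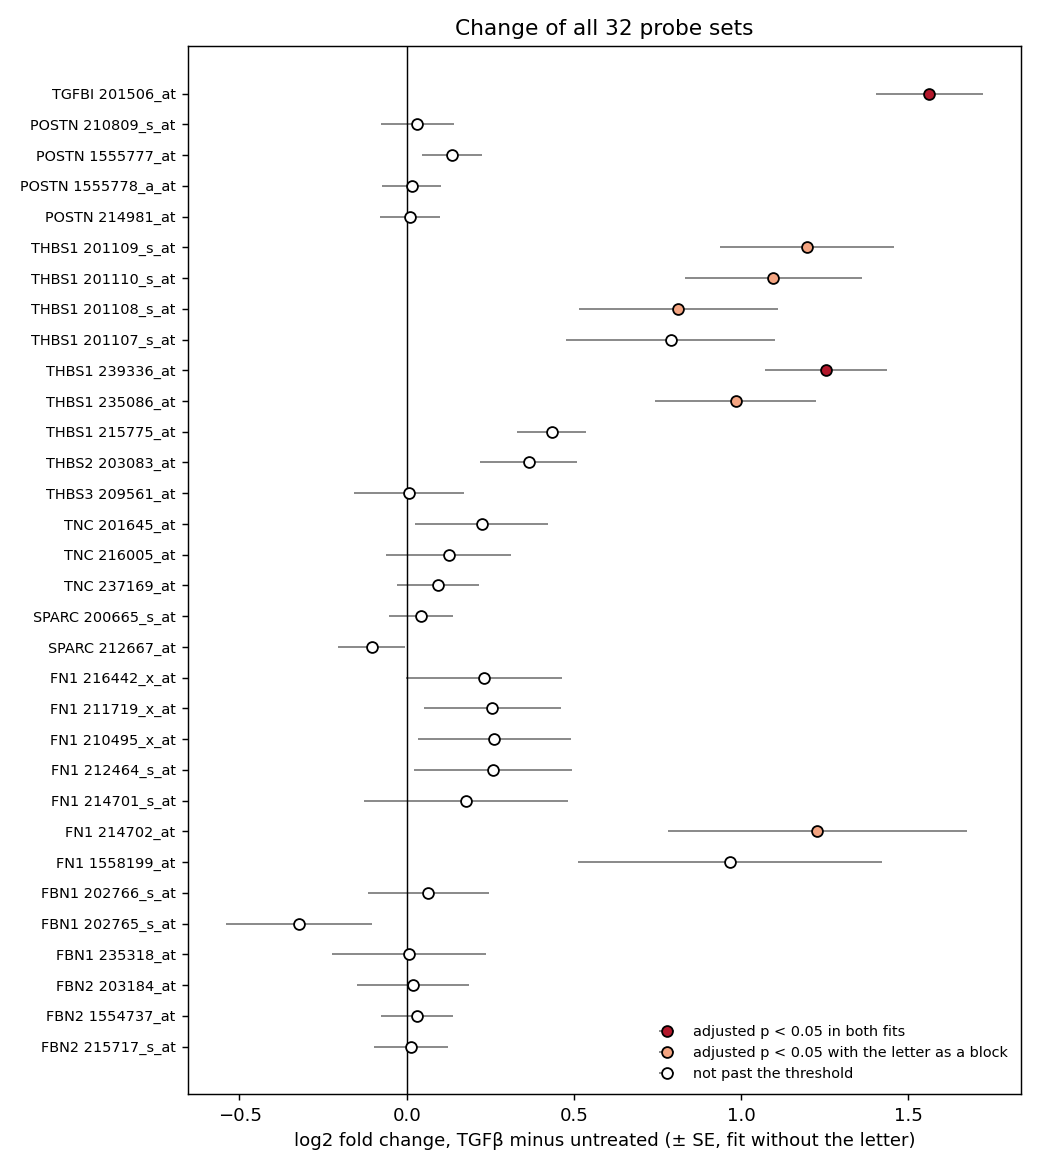
Log2 fold change of the 32 probe sets, TGFβ minus untreated, with the standard error of the fit without the letter (4 arrays in each group). Dark red points passed in both fits, pale points with the letter as a block only, and white points in neither. TGFBI lies furthest right, and 2 dim FN1 probe sets lie among those of THBS1.

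The promoters of TGFBI and THBS1, whose probe sets rose, and of THBS2, the closest relative of THBS1, are shown from RefSeq (GRCh38.p14), 250 bases before to 50 after the start of the gene, on the gene's strand. Capitals mark CAGAC, the short DNA element that SMAD proteins bind, or its reverse complement.
TGFBI, chr5:136028738-136029037, plus strand: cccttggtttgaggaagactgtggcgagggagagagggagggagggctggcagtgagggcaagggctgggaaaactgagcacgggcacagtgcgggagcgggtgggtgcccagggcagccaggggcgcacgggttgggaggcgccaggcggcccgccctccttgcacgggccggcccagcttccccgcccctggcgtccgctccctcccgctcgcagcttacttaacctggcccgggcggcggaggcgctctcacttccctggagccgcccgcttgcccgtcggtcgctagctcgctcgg
THBS1, chr15:39580829-39581128, plus strand: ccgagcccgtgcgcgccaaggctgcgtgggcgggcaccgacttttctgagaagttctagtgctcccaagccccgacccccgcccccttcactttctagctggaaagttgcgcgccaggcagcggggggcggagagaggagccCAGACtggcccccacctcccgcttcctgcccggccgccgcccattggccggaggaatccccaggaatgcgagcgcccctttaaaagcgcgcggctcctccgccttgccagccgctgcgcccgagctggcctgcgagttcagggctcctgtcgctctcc
THBS2, chr6:169253797-169254096, minus strand: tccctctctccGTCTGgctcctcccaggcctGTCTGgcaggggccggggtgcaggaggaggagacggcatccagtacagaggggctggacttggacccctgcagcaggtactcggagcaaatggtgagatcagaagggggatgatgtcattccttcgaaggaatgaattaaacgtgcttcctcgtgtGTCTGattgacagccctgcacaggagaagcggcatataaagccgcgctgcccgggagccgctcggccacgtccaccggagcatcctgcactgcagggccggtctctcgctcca

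CAGAC was searched on both strands, as were the SMAD palindrome GTCTAGAC and the AP-1 element TGANTCA, and no matches overlapped. The TGFBI window held none of the 3, the THBS1 window 1 CAGAC that starts at base -108 from the start, and the THBS2 window 3 at bases -239, -219 and -63, all on the opposite strand. In 35116 promoter windows of the same length CAGAC was found in 45.3%, TGANTCA in 7.71% and GTCTAGAC in 0.202%. All 10 members had a window, THBS3 with 2. Among the others, those of POSTN, TNC and SPARC held 1 CAGAC each, that of POSTN also 1 TGANTCA at base -220, and those of THBS3, FN1, FBN1 and FBN2 none of the 3 motifs. A match is letters only, and so is its absence.

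The cells and arrays were checked on a few lists. Array medians lay between 4.62 and 4.66. Of 7 TGFβ targets taken as a check 2 passed, JUNB and SMAD7, early targets of TGFβ signalling. Both rose in the treated arrays (log2 fold change 1.64 ± 0.11 and 1.81 ± 0.22 SE, adjusted p = 0.000416 and 0.0108). The other 5 did not pass in the same fit, with SKIL, PMEPA1, ID1 and KLF10 positive and TGIF1 at -0.11. The list for basal mesenchymal lines held vimentin, CD44, EGFR and the epithelial keratins KRT8 and KRT18, which are not particular to such lines. Its 5 genes had mean signals between 9.72 and 13.65. The 7 fibroblast markers lay between 2.59 and 5.83, with the lowest for FAP and COL3A1. Summed over the fibroblast list the signal was 7.33 to 7.46 in treated and 7.19 to 7.46 in untreated arrays (log2). Of the endothelial markers CDH5, VWF and KDR and the 3 measured leukocyte markers none reached 5 in its mean, whereas PECAM1 had 7.16 in treated and 7.59 in untreated cells (adjusted p = 0.292, and 0.0374 with the block). With PECAM1 the summed endothelial signal was 7.30 to 7.63 in treated and 7.72 to 7.99 in untreated arrays, and its part in the results was not tested. Among luminal markers GATA3 and EPCAM lay between 7.33 and 8.39 and ESR1 and PGR between 3.12 and 5.83. CDH1 (E-cadherin) rose to 4.98 in treated cells, against 4.08 in untreated ones (adjusted p = 0.0129), with both means under 5. Treated array A stood apart in its signal toward the 3-prime end of control transcripts. Its beta-actin 3-prime probe set exceeded the 5-prime one by 1.68 (log2), against 0.63 to 0.78 in the other treated and 0.67 to 0.89 in the untreated arrays.

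TGFBI (Entrez Gene 7045; 201506_at) had signals of 9.25, 9.46, 9.78 and 9.73 in treated arrays A to D, against 7.60, 8.24, 8.03 and 8.10 in the untreated ones. The lowest treated array lay 1.01 above the highest untreated one, and array A was the lowest of its group on both sides. The mean was 9.55 ± 0.24 in treated and 7.99 ± 0.28 in untreated cells (SD, n = 4 each), a 2.95-fold difference (log2 fold change 1.56 ± 0.16 SE, 95% interval 1.21 to 1.92, adjusted p = 0.0047, and 0.000297 with the block). The same-letter differences were 1.65, 1.22, 1.75 and 1.63. TGFBI passed in all 8 fits without 1 array (adjusted p up to 0.031) and in the 4 block fits without 1 letter.

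POSTN had 4 probe sets, with signals between 1.99 and 2.90 in all arrays, in the lowest range of the platform. Its log2 fold changes lay between 0.01 and 0.13 (adjusted p 0.806 to 0.991), and its groups overlapped in every probe set. RMA gives no detection call, so these signals cannot be told from background, and no change could be measured there.

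**Figure D2:**
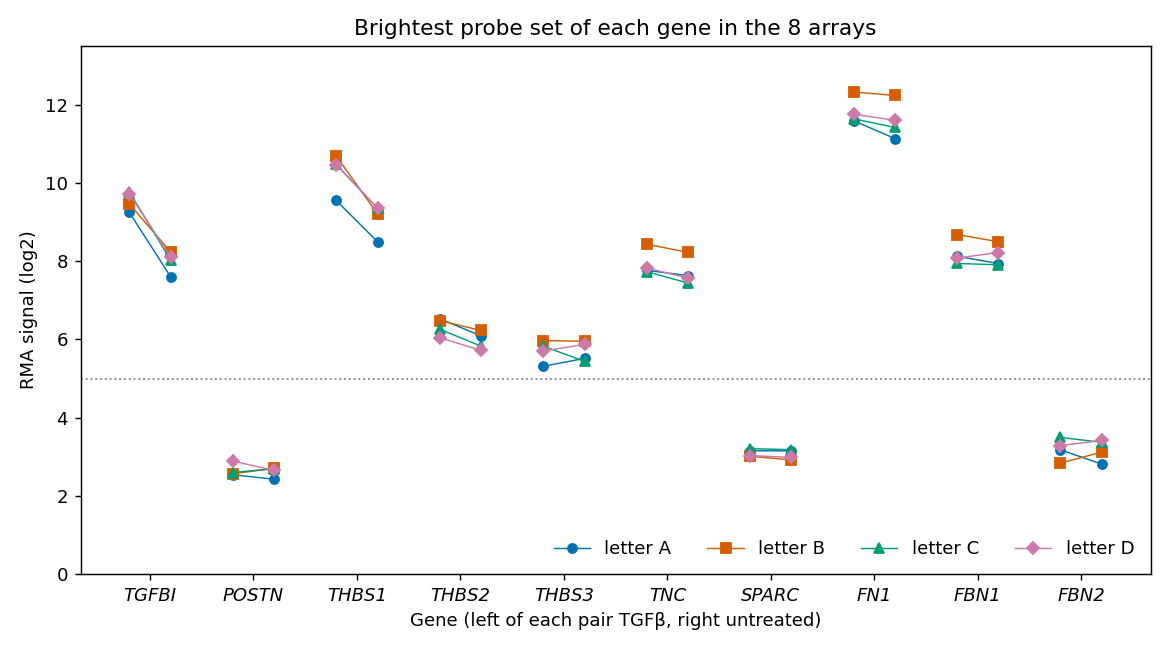
RMA signal (log2) of the brightest probe set of each gene in the 8 arrays, TGFβ at the left and untreated at the right of each pair, with lines joining arrays of the same letter. TGFBI and THBS1 slope down to the untreated side in every letter, and THBS2, TNC, FN1 and SPARC do so by less. FN1, TNC and FBN1 are highest in letter B in both groups, and POSTN, SPARC and FBN2 lie under the dotted line at 5.

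THBS1 (Entrez Gene 7057), the thrombospondin that platelets and many other cells secrete, was higher in all 4 letters in each of its 7 probe sets. The brightest, 201109_s_at, had 9.55, 10.69, 10.47 and 10.47 in treated arrays A to D, against 8.50, 9.20, 9.35 and 9.35 in untreated ones. Both A arrays were the lowest of their groups. The groups did not overlap, but treated array A came within 0.20 of the highest untreated array. The mean was 10.30 ± 0.51 in treated and 9.10 ± 0.41 in untreated cells (SD, n = 4 each), a 2.29-fold difference (log2 fold change 1.20 ± 0.26 SE). It did not pass without the block (adjusted p = 0.146) and passed with it (1.20 ± 0.10 SE, adjusted p = 0.000818). Without treated array A it passed without the block too (1.44, adjusted p = 0.0181).

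The probe set 239336_at was the one of THBS1 that passed in both fits. It had 6.62, 7.02, 6.70 and 6.62 in treated arrays A to D, against 4.92, 5.81, 5.58 and 5.64 in untreated ones, and the groups lay 0.81 apart. The log2 fold change was 1.25 ± 0.18 SE (2.38-fold, adjusted p = 0.0265, and 0.0016 with the block). It lost the call without the block when treated array B, C or D or untreated array C or D was left out (adjusted p up to 0.101).

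Of the other 5 probe sets, 201110_s_at, 201108_s_at and 235086_at passed with the block (log2 fold change 1.10, 0.81 and 0.98, adjusted p = 0.0018, 0.0131 and 0.0107). The block call of 201110_s_at held without any 1 letter, that of 235086_at was lost without letter B (adjusted p = 0.082), and that of 201108_s_at held only without letter A and was lost without B, C or D (adjusted p = 0.101, 0.0834 and 0.0692). The dim 215775_at had 0.43 and 201107_s_at 0.79, and neither passed (adjusted p = 0.055 and 0.0689 with the block). Letter A set 2 probe sets apart from the rest: 201107_s_at had 5.89 in treated and 5.87 in untreated array A, a difference of 0.02 against 0.82 to 1.19 in the other letters, and 201108_s_at differed by 0.36 in A against 0.91 to 1.06. Without treated array A both passed even without the block (1.16 and 1.14, adjusted p = 0.00952 and 0.0312). In 239336_at and 201110_s_at, in contrast, the difference in letter A, 1.70 and 1.32, was the highest of the 4. Where the probes lie on the transcript is not given in the sources used here, and the part of the 3-prime excess of treated array A in these differences was not tested.

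**Figure D3:**
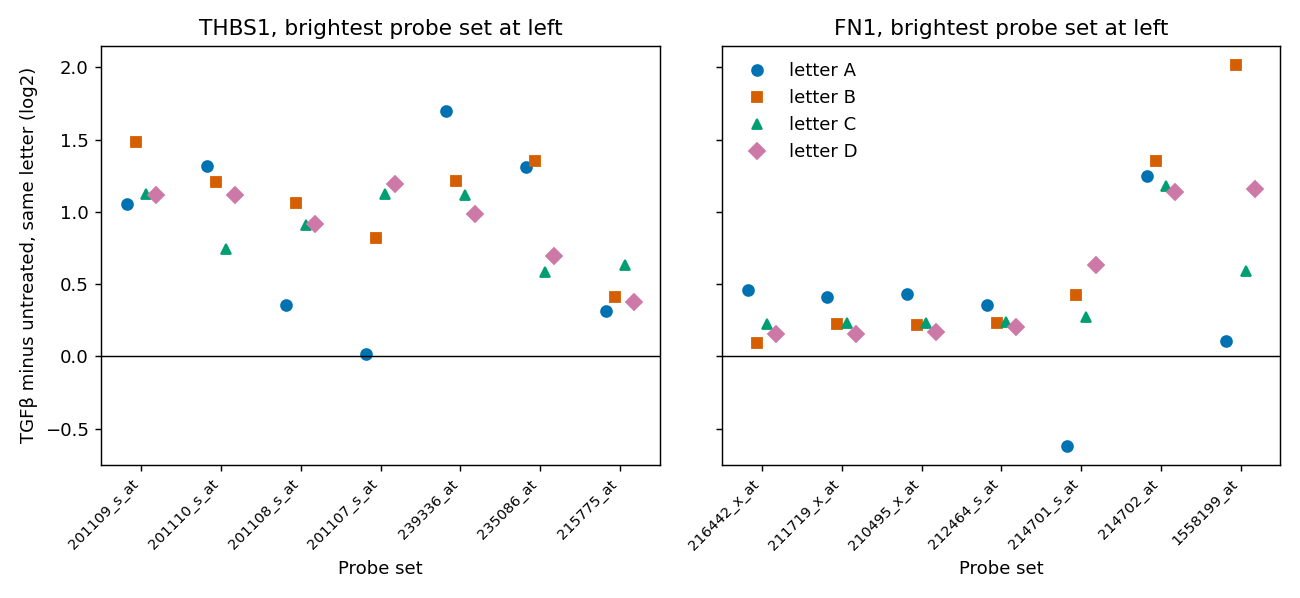
Same-letter differences, TGFβ minus untreated (log2), for the 7 probe sets of THBS1 and of FN1, ordered from the brightest at the left. All THBS1 values are above 0, from 0.02 to 1.70, whereas in FN1 the 4 brightest probe sets lie between 0.09 and 0.46 and 214702_at between 1.14 and 1.36.

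THBS2, the relative of THBS1 with the same trimeric build, had 6.53, 6.48, 6.26 and 6.05 in treated arrays A to D, against 6.09, 6.23, 5.83 and 5.72 in untreated ones. The treated array was higher in each letter, by 0.25 to 0.44, but the groups overlapped. Its log2 fold change was 0.36 ± 0.14 SE (adjusted p = 0.593, and 0.0812 with the block), short of the threshold in both fits. THBS3, of the thrombospondin subgroup that forms pentamers, had 5.31, 5.97, 5.83 and 5.70 in treated arrays A to D, against 5.52, 5.95, 5.44 and 5.88 in untreated ones. Its letters went both ways, and the log2 fold change was 0.01 ± 0.16 SE (95% interval -0.36 to 0.37, adjusted p = 0.996).

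By the brightest probe set of each gene, THBS1 changed by 0.83 ± 0.43 more than THBS2 (log2, SE), in each letter by 0.61 to 1.23. The exact permutation p over the 8 arrays was 0.0857 (two-sided, 0.114 adjusted over 4 pairs of related members). THBS1 changed by 1.19 ± 0.23 more than THBS3, in each letter by 0.74 to 1.47, with no overlap between groups. Here the exact permutation p was 0.0286, the smallest that 4 against 4 allows (0.0571 adjusted over the 4 pairs). The other 2 pairs, TGFBI with POSTN and FBN2 with FBN1, hold a gene too low to compare. No difference is read from them, though both stayed in the adjustment. Neither THBS1 difference passed the threshold after adjustment, which does not show that the thrombospondins respond alike. A pass after adjustment needed most of the 4 pairs at the smallest possible p.

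TNC (tenascin C), a matricellular protein of wounds and tumour stroma, had 1 probe set with a signal over 5. This one, 201645_at, had 7.77, 8.43, 7.73 and 7.83 in treated arrays A to D, against 7.63, 8.23, 7.44 and 7.57 in untreated ones. Both B arrays were the highest of their groups, while the same-letter differences were 0.14, 0.21, 0.29 and 0.26. The log2 fold change was 0.22 ± 0.20 SE (95% interval -0.22 to 0.67, adjusted p = 0.865), and the block fit gave 0.22 ± 0.08 SE, also short of the threshold (adjusted p = 0.281). SPARC, a collagen-binding matricellular protein, had 2 probe sets with signals between 2.44 and 3.21 in all arrays and log2 fold changes of 0.04 and -0.11 (adjusted p = 0.958 and 0.877). Like POSTN, it lay too low for a change to be measured.

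FN1 (Entrez Gene 2335) had 7 probe sets. The 4 brightest had mean signals between 11.57 and 11.71 and moved little: 216442_x_at had 11.59, 12.32, 11.64 and 11.76 in treated arrays A to D, against 11.13, 12.23, 11.42 and 11.60 in untreated ones. The treated array was higher in each letter in all 4, by 0.09 to 0.46, yet letter B lay above the other letters by more than this in both groups. Their log2 fold changes of 0.23 to 0.26 did not pass in either fit (adjusted p 0.844 to 0.887, and 0.209 to 0.329 with the block).

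The dim FN1 probe set 214702_at had 4.69, 6.60, 4.96 and 5.41 in treated arrays A to D, against 3.45, 5.25, 3.79 and 4.28 in untreated ones. The groups overlapped because letter B was high on both sides, but the same-letter differences were nearly equal, at 1.25, 1.36, 1.18 and 1.14. Its log2 fold change of 1.23 (2.34-fold) had an SE of 0.45 without the block, which missed the threshold (adjusted p = 0.526), and an SE of 0.09 with the block (adjusted p = 0.000381). It passed in all 4 block fits without 1 letter. The platform annotation gives the same design sequence for 214701_s_at, of intermediate signal (mean 7.39), where letters A to D differed by -0.62, 0.42, 0.27 and 0.63 (adjusted p = 0.737 with the block), short of the threshold. Its negative value fell in the letter whose treated array had the 3-prime excess, whose part was not tested. The other dim probe set, 1558199_at, had same-letter differences of 0.10, 2.02, 0.59 and 1.16 (adjusted p = 0.113 with the block). Which form of the FN1 transcript each probe set measures is not given in the sources used here.

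FBN1, the main fibrillin of adult microfibrils, had 2 probe sets with signals over 5. The brighter, 202766_s_at, had 8.13, 8.68, 7.94 and 8.08 in treated arrays A to D, against 7.94, 8.50, 7.91 and 8.22 in untreated ones, with overlapping groups and a log2 fold change of 0.07 ± 0.18 SE (95% interval -0.33 to 0.46, adjusted p = 0.967). The other, 202765_s_at, had 6.23, 7.25, 6.88 and 6.88 in treated arrays, against 6.77, 7.57, 7.04 and 7.16 in untreated ones. It was the 1 member that was lower in all 4 letters (10.0% of all probe sets were), by 0.54 in A, where the 3-prime excess lay, and by 0.15 to 0.32 in the others, but it missed the threshold (log2 fold change -0.32 ± 0.22 SE, adjusted p = 0.812, and 0.158 with the block). FBN2, the fibrillin of developing tissue, had 3 probe sets with signals between 2.05 and 3.50 in all arrays, too low for a change to be measured, and log2 fold changes between 0.01 and 0.03.

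In most of these genes the letters lay further apart than the treatment groups. Over the 17 member probe sets with a mean signal of 5 or more, the 4 letter means (each over the treated and the untreated array) spanned a median of 0.91, against 0.36 over the 24331 probe sets of the series at this level. The span exceeded the size of the treatment difference in 12 of the 17, or 70.6%, against 89.9% of all such probe sets, so a span above the treatment difference was the rule on these arrays. Letter B was the highest in 14 of the 17 (82.4%, against 28.4% of all) and letter A the lowest in 14 (82.4%, against 29.4%). For the brightest FN1 probe set the letter means were 12.28 in B and 11.36 in A, and for TGFBI 8.85 in B and 8.43 in A, with D the highest at 8.91. The labels do not say what a letter stands for, and probe sets of FN1 (5) and THBS1 (6) make up most of the 17.

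**Figure D4:**
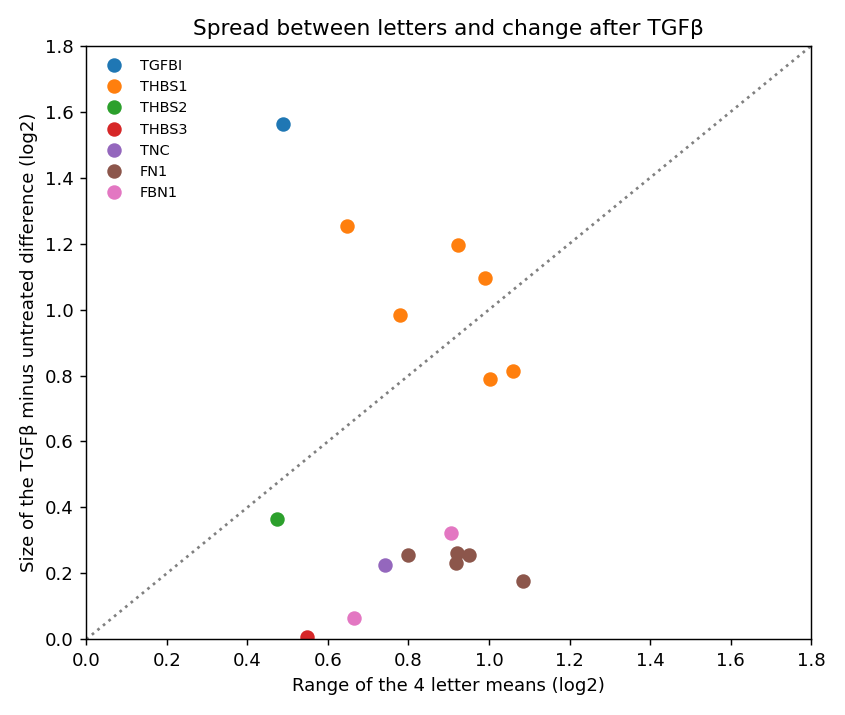
Size of the difference between TGFβ and untreated cells against the range of the 4 letter means (both log2), for the 17 probe sets with a mean signal of 5 or more, coloured by gene. TGFBI and 4 of the 6 THBS1 probe sets lie above the dotted line of equality, and the FN1, FBN1, TNC, THBS2 and THBS3 probe sets lie under it.

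Among genes of the same matrix system, 62 of 63 listed genes were measured, each by its brightest probe set. In the fit without the block 1 rose and 0 fell, against 0.399% called among the brightest probe sets of all genes, and with the block 2 rose and 0 fell (2.21%). Of 18 other matricellular genes CCN2, a cysteine-rich matricellular protein, rose, with 11.66 to 11.86 in treated arrays against 10.97 to 11.21 in untreated ones (log2 fold change 0.62 ± 0.09 SE, adjusted p = 0.0332). It lost the call in 7 of the 8 fits without 1 array, all but the one without treated array A. Its block call (adjusted p = 0.00888) was lost without letter B, C or D (adjusted p = 0.0817, 0.0571 and 0.059). The other 17 did not pass, among them SMOC1 (0.19), CCN5 (0.17) and TNR (-0.13). Their median was 0.07, and that of the brightest probe sets of all genes 0.01.

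None of 25 microfibril and elastic fibre genes passed in either fit, while 22 had a positive log2 fold change, against 52.7% of the brightest probe sets of all genes. The median of the 25 was 0.13, and 11 of them had a mean signal under 5. At an unadjusted p of 0.05, 2 were higher and 0 lower, against 3.94% and 4.19% of those of all genes. FURIN, the protease that cuts profibrillin and the TGFβ precursor, had 7.63 to 8.13 in treated arrays against 7.20 to 7.50 in untreated ones, without overlap (log2 fold change 0.55 ± 0.13 SE, adjusted p = 0.173, and 0.0784 with the block). MFAP4, a microfibril-associated protein, had 0.27 ± 0.10 SE (adjusted p = 0.579), at low means of 4.72 in treated and 4.46 in untreated cells.

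Of 19 measured receptors of these proteins 0 passed without the block (2 higher and 0 lower at an unadjusted p of 0.05, against the same 3.94% and 4.19%) and 1 with it. ITGA5, the integrin subunit that binds fibronectin, had 9.49, 9.38, 9.30 and 9.17 in treated arrays A to D, against 9.14, 8.93, 8.43 and 8.52 in untreated ones. The groups lay 0.02 apart and the log2 fold change was 0.58 ± 0.16 SE (adjusted p = 0.291, and 0.0315 with the block). The block call was lost without letter B, C or D (adjusted p = 0.123, 0.134 and 0.149). ITGB3, a partner of ITGAV in a receptor for RGD-bearing matrix proteins, had 0.27 ± 0.09 SE, short of the threshold (adjusted p = 0.438), with all 7 of its probe sets positive. The receptors' median was 0.06.

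The genes whose signal ran closest to that of TGFBI over the 8 arrays, by the root mean square distance between mean-centred log2 signals, were PID1 (0.19), DDB2 (0.20), SMAD7 (0.22), TIAM2 (0.23) and COL1A1 (0.23), where the median over all genes was 0.82. For the brightest probe set of THBS1 they were PLAU (0.17), which encodes urokinase, PID1 (0.22), BLOC1S2 (0.23), AFAP1L2 (0.24) and CDKN1A (0.24), with a median of 0.74 over all genes. These distances describe 8 arrays that share treatment and letter.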

How the data were processed

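Members and lists were chosen with earlier results of these data known. The deposited table gives a log2 signal for each probe set and array, which the authors obtained with RMA, per the submitters' processing notes; the RNA was total RNA labelled as biotinylated cRNA, per the labels. That the scale is log2 is an inference from RMA and the range of values. No source used here gives the version of RMA or says whether other arrays were normalized with these 8. Of 54675 probe sets 62 controls stayed out of the tests. GEO's annotation names 1 gene for 41091, several for 1801 and none for 11721.

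The test was limma 3.58.1 under R 4.3.3 (lmFit, eBayes, two-sided), treated minus untreated, over all 54613 probe sets, with Benjamini-Hochberg adjustment over all of them and a threshold of 0.05. The fit without the letter was fixed as the reported one. Deviations from group means correlated by 0.41, 0.59, 0.26 and 0.24 in the same-letter arrays A to D. For the block fit the letters were therefore taken to pair the arrays, although no label states a pairing. Arrays C and D each matched the other letter's array best, so these deviations do not show a pairing within C or within D. Differences in response between members used exact permutation tests over arrays (scipy 1.17.1). Figures were drawn with matplotlib 3.10.9.

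Named were all members, the 4 genes of smallest p in each list (2 without a call), 7 TGFβ targets as a check and the 5 nearest profiles. Of the targets SKIL, PMEPA1, ID1, KLF10 and TGIF1 did not pass (log2 fold change 1.41, 2.24, 0.50, 0.46 and -0.11), of which SKIL and PMEPA1 passed with the block (adjusted p = 0.00887 and 0.00299). Both fits were tested on simulated data of 54613 probe sets with 200 changed. Without shared letter effects, the unblocked fit found 73% of 2-fold and 31% of 1.5-fold changes. With them, the blocked fit found 91% and 61%. The shared effects were mean deviations of same-letter arrays in these data, shuffled among probe sets, so they also hold noise of single arrays. The random noise was made smaller where they were added. The percentages can therefore be compared between fits of the same simulation, not between simulations. How much the block gains with shared effects is partly set by this construction and does not measure its gain in these data. The block cost calls where no letter effect was simulated (17% and 0%), and without the block 80% and 16% were found where one was. False calls were 6 of 110, 0 of 17, 1 of 97 and 7 of 159 for the unblocked and blocked fit without, and the unblocked and blocked fit with, shared effects. The number of arrays limits the precision.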

Additional observations from a re-analysis of the deposited data

Results flagged for a closer look

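Of 94 groups of 4 arrays tested for a single array far from the others, 8 stood out, where chance alone flags about 5%. The measure is the gap to the nearest array divided by the range of the group. THBS1 accounts for 4. In 201110_s_at untreated array A had 8.21 against 9.22 to 9.26 (0.964). In 201108_s_at both A arrays were lowest, with 8.77 against 9.98 to 10.18 treated (0.861) and 8.41 against 9.07 to 9.15 untreated (0.896). In 201107_s_at treated array A had 5.89 against 7.28 to 7.45 (0.893).

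SMAD7 was also lowest in treated array A, at 7.28 against 7.90 to 7.99 (0.867). Treated array B was highest for TNC 201645_at, with 8.43 against 7.73 to 7.83 (0.864), and for CCN2, with 11.86 against 11.66 to 11.68 (0.919). In POSTN 210809_s_at, at signals too low to read, treated array D had 2.90 against 2.54 to 2.60 (0.841). Treated array A is the one with the 3-prime excess in its control transcripts, but untreated array A, at 0.89 for beta-actin, lay close to the other arrays. The part of this excess in the flags was not tested.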

How the results depend on the processing

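The number of member probe sets past the threshold was 2. It stayed at 2 when the upper 60% of signals alone were tested, with centring on array medians, after a second quantile normalization, with a trended, robust prior, and on probe sets with the plain suffix alone. It was 7 with the replicate block (10, 5, 6 and 6 in block fits without letter A, B, C or D), and 1 to 5 in the fits without 1 array. With 1 probe set per gene, or with probe sets averaged per gene, 1 of 10 genes passed. This gene was TGFBI, while THBS1 missed the threshold (adjusted p = 0.0884 and 0.102). All members called in any of these fits were higher in treated cells. Over all probe sets 140 passed, 954 with the replicate block (1416, 282, 389 and 384 without letter A, B, C or D), 85 with probe sets averaged per gene and 33 to 240 without 1 array. Of the other matrix genes 1 passed, 2 with the replicate block (4, 0, 0 and 0 without letter A, B, C or D) and 0 to 1 without 1 array. Of the 4 called without letter A, 3 were higher and 1, among the receptors, was lower (adjusted p = 0.0173). The number of calls thus depended on the letters and on single arrays, and the cause was not tested. The differences of THBS1 from THBS2 and THBS3 missed the threshold in every alternative run. Without 1 array they were 0.59 to 1.15 for THBS1 minus THBS2 and 1.05 to 1.36 for THBS1 minus THBS3. Both were lower with probe sets averaged per gene, at 0.57 and 0.93. FBN2 minus FBN1 ran -0.23 to 0.23 across 0, which compares nothing because FBN2 lay too low. With 3 against 4 arrays, or with 4 sign-flipped pairs (replicate block, adjusted p = 0.167 for both THBS1 differences), these tests cannot pass. With 4 against 4 arrays a pass after adjustment needed most of the 4 pairs at the smallest possible p, so these misses say little. Low signals limit POSTN, SPARC and FBN2.

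The sign of the log2 fold change turned in 52 values of 13 member probe sets, none of them past the threshold in either fit, and the cause was not tested. With centring on array medians it was -0.0040 for POSTN 214981_at, -0.0055 for THBS3 209561_at, -0.0067 for FBN1 235318_at and -0.0010 for FBN2 215717_s_at. After the second quantile normalization it was -0.0014 for POSTN 1555778_a_at, -0.021 for FBN1 235318_at, -0.016 for FBN2 203184_at and -0.0007 for FBN2 215717_s_at. With probe sets averaged per gene it was -0.031 for SPARC and -0.083 for FBN1, and FBN2 minus FBN1 was 0.10. In the replicate block fit without letter A it was -0.15 for FBN1 235318_at and -0.10 for FBN2 203184_at. In the replicate block fit without letter B it was -0.065 for FBN2 1554737_at. In the replicate block fit without letter C it was -0.046 for POSTN 214981_at, -0.12 for THBS3 209561_at, -0.0030 for TNC 237169_at, -0.016 for FBN2 203184_at and -0.016 for FBN2 1554737_at. In the replicate block fit without letter D it was -0.039 for POSTN 210809_s_at, -0.027 for POSTN 1555778_a_at, -0.019 for POSTN 214981_at and -0.043 for FBN2 215717_s_at. Without 1 array it ran -0.050 to 0.068 for POSTN 210809_s_at, -0.036 to 0.057 for POSTN 1555778_a_at, -0.023 to 0.060 for POSTN 214981_at, -0.081 to 0.14 for THBS3 209561_at, -0.057 to 0.23 for TNC 216005_at and -0.0033 to 0.084 for SPARC 200665_s_at. For the rest it ran -0.0033 to 0.53 for FN1 214701_s_at, -0.093 to 0.18 for FBN1 202766_s_at, -0.13 to 0.20 for FBN1 235318_at, -0.10 to 0.14 for FBN2 203184_at, -0.037 to 0.084 for FBN2 1554737_at and -0.037 to 0.092 for FBN2 215717_s_at.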
